A study of Mus musculus with 36 samples.

Results

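Assay Mm00445845_m1 is 1 of 224 TaqMan assays that were run on ileal mucosa, the inner lining of the last stretch of the small intestine, from mice with different gut bacteria. The maker's catalogue lists this assay for Retnlb (RefSeq gene ID 57263), which codes for resistin-like molecule beta. The deposited table gives assay IDs only, and 0 of the 224 IDs occur in the gene table at hand, so the name Retnlb rests on the catalogue and was not checked here. The assay was chosen by its ID and on its measured Ct values, which lie at the high end of the panel. Its level and its detection are therefore given as a description, without a test. Whether the groups differ in level was tested in a fit across all tested assays of the panel.

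Resistin-like molecule beta is a small secreted protein of intestinal goblet cells, the mucus-producing cells of the gut lining. In the mouse it is best known from the colon, where it is induced when germfree animals acquire bacteria and, through type 2 cytokines such as interleukin-13, during worm infection. It is also known to kill Gram-negative bacteria, the class to which E. coli belongs. In a whole-mucosa sample, more goblet cells cannot be told apart from more transcript in each of them. The IDs are not paired with genes, so no goblet cell marker or other member of the pathway could be read beside it.

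The series holds 36 samples in 4 groups of 9. Germfree mice, the controls, carry no microbes. CEC and Nissle samples came from mice mono-associated with E. coli CEC or with E. coli Nissle, each group carrying a single strain, and their labels add the number 21 for colonisation, with no unit. Conventional mice carry a complex microbiota. The labels used here give no mouse strain, sex or age for any group. The design text speaks of pooling equal amounts of RNA from the mice, whereas the titles number the samples one by one, so a sample may be a mouse or a pool, and the tests measure the spread between samples only.

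The readout is the Ct, the PCR cycle at which a well's fluorescence crosses a threshold. A lower Ct means more template, and with complete amplification 1 cycle is a doubling. A deposited Ct of 40 marks a well that did not amplify, and such wells are called undetermined here. Measured values in the whole table ran from 11.6 to 32.4. To compare samples, a log2 relative level was computed as the sample's mean Ct over the 146 assays measured in all samples, minus the Ct of the assay. It is negative for an assay that crosses the threshold later than that mean. The panel mean itself moved little, from 20.97 to 21.80 across the 36 samples, a span of 0.835 cycles, while the Ct of Mm00445845_m1 spanned 7.63 cycles, from 23.40 to 31.03. Between 214 and 222 assays were measured per sample, except for 198 in CEC replicate 6 and 175 in Nissle replicate 6. CEC replicate 7 was measured for 217 assays but had a profile unlike the rest of its group. Group values with and without CEC replicate 7 and Nissle replicate 6 are given below.

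The transcript was detected in most samples of every group, but at a raw Ct below 28 in all samples of the conventional group alone. A Ct was obtained in 33 of 36 samples, and 22 of those values were under 28. Over all 224 assays 92.3% of wells had a Ct under 28 and 3.61% were undetermined. A full count under 28, as in the conventional group, is thus usual for the panel. In conventional samples 9 of 9 had a Ct under 28 (100%, exact Clopper-Pearson 95% confidence interval 66.4 to 100%) and 9 of 9 a Ct under 40. In CEC samples 5 of 9 were under 28 (55.6%, interval 21.2 to 86.3%), and 9 of 9 were under 40. In Nissle samples 4 of 9 were under 28 (44.4%, interval 13.7 to 78.8%), and 8 of 9 were under 40 (88.9%, interval 51.8 to 99.7%). In germfree samples 4 of 9 were under 28 (44.4%, interval 13.7 to 78.8%), and 7 of 9 were under 40 (77.8%, interval 39.99 to 97.2%). The intervals are wide with 9 samples a group and overlap for every pair of groups.

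The 3 undetermined wells belonged to germfree replicates 30 and 32 and to Nissle replicate 8. Those samples were otherwise well measured, with 9, 7 and 6 undetermined assays in all, within the range of 2 to 10 for the panel outside CEC replicate 6 and Nissle replicate 6. The limit of 28 ran close to several samples. Just inside it lay germfree replicate 12 at Ct 27.94, conventional replicate 2 at 27.92 and conventional replicate 4 at 27.72. Just outside it were germfree replicate 11 at 28.10, Nissle replicate 5 at 28.23 and germfree replicate 33 at 28.83. With a limit of 27 in place of 28, the counts were 0 of 9 germfree, 5 of 9 CEC, 3 of 9 Nissle and 7 of 9 conventional samples. A limit of 29 adds germfree replicates 11 and 33 and Nissle replicate 5, and no CEC or conventional sample. The order of germfree, CEC and Nissle by count thus changed with the limit. After each Ct was shifted for its sample's panel mean, conventional replicate 2 stood at 28.04, outside the limit of 28.

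**Figure D1:**
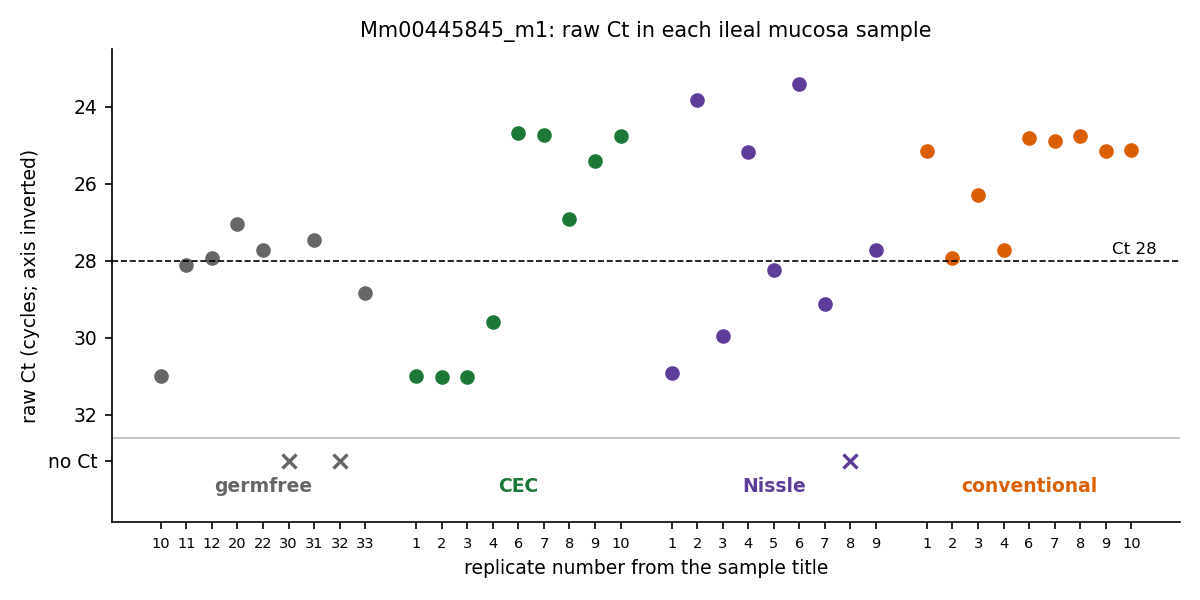
Raw Ct of Mm00445845_m1 in each of the 36 samples, with the axis inverted so that more template is higher. Points are single samples, crosses are undetermined wells, the dashed line is Ct 28, and numbers are the replicate numbers of the titles. All 9 conventional samples lie above the dashed line, and CEC and Nissle samples range from well above it to near Ct 31.

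In germfree samples the measured Ct ran from 27.03 to 30.99 with a median of 27.94. Of the 7 measured germfree samples, 6 lay between 27.03 and 28.83, and replicate 10 stood below them in level at 30.99. The mean log2 relative level was -6.93 ± 1.29 (SD, n = 7). It leaves out the 2 undetermined samples, so it is the mean of the germfree samples in which the transcript was seen.

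In conventional samples the Ct ran from 24.77 to 27.92 with a median of 25.14, and the mean log2 relative level was -4.53 ± 1.24 (SD, n = 9). The values of 6 samples, replicates 1, 6, 7, 8, 9 and 10, fell between Ct 24.77 and 25.15. Replicate 3 followed at 26.28, and replicates 4 and 2 had the least transcript, at 27.72 and 27.92. In level, 7 of 9 conventional samples exceeded every measured germfree sample, and replicates 2 and 4 lay within the germfree range.

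Among measured values, mono-associated samples covered a wider range than either of these groups. The germfree range leaves out 2 undetermined samples and the Nissle range 1, so both may reach lower in level than the measured values show. With CEC the Ct ran from 24.69 to 31.03 with a median of 26.91, and no sample lay between 26.91 and 29.59. Replicates 6, 7, 8, 9 and 10 had Ct values of 24.69, 24.73, 26.91, 25.41 and 24.76. Replicates 1, 2, 3 and 4 had values of 31.01, 31.03, 31.03 and 29.59. This split ran along the title numbers. The labels do not say whether neighbouring numbers share a litter or a day, and every test treated the samples as independent. Nissle samples did not divide by number in this way. In conventional samples replicates 2, 3 and 4 had the latest Ct values, but replicate 1 did not join them. The CEC mean log2 relative level of -6.40 ± 2.95 (SD, n = 9) fell in a stretch without any CEC sample, between -8.19 and -5.61. Among the CEC samples 4 exceeded every measured germfree sample and 3 lay below every one of them. Without CEC replicate 7, the highest of the group at -2.93, the mean was -6.83.

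With Nissle the Ct ran from 23.40 to 30.92 with a median of 27.97 over 8 measured samples. The lowest Ct values of the series were those of Nissle replicates 6 and 2, at 23.40 and 23.82. Replicate 4 followed at 25.17. Replicates 9, 5, 7, 3 and 1 had Ct values of 27.71, 28.23, 29.13, 29.95 and 30.92, and replicate 8 was undetermined. The mean log2 relative level was -5.97 ± 2.91 (SD, n = 8), and -6.52 without Nissle replicate 6. Among the measured Nissle samples 3 exceeded every measured germfree sample and 1 lay below them all.

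The order of the group means was conventional, Nissle, CEC and germfree, from highest to lowest. The steps from conventional to Nissle, from Nissle to CEC and from CEC to germfree were each smaller than the SD of the mono-associated group involved. Without CEC replicate 7 and Nissle replicate 6 the order was the same, although CEC exceeded germfree by only 0.01 log2 units in the fit without them. Between its lowest and highest measured sample the level differed 9.47-fold in the conventional and 15.7-fold in the germfree group. The span was 128-fold with CEC and 195-fold with Nissle, if 1 cycle is taken as a doubling. CEC replicate 7 and Nissle replicate 6 were the upper ends of those spans, and without them, a repeat chosen after seeing the data, the spans were 87.8-fold and 188-fold.

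The comparison of conventional with germfree samples asks whether the level of the transcript differs with a complex microbiota. The mean difference was 2.40 ± 1.11 log2 units (SE), a 5.27-fold higher level in conventional samples with a 95% confidence interval of 1.10 to 25.2-fold, and 9 of 9 conventional samples lay above the germfree mean. The difference did not pass the threshold of 0.05 in limma with all 4 groups fitted (adjusted p = 0.117, unadjusted p = 0.0380). In that fit 56 of 216 assays were called, or 25.9%. By size this difference ranked 6 among the 216, and by p it ranked 69. Germfree replicate 10, at -9.53, pulls the germfree mean down. The germfree median was -6.54, and conventional replicate 2, at -6.75, lay below it. Without germfree replicate 10 the difference was 1.96 (limma, adjusted p = 0.231). Leaving out the lowest germfree sample raises the germfree mean, so the direction of that change was set by the choice.

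That SE draws on the spread of all 4 groups, including the wide CEC and Nissle values. With only germfree and conventional samples fitted, the SE was 0.59. The same difference then passed the test (limma, adjusted p = 0.00485), in a fit that called 37.4% of 219 assays. The exact permutation test per assay, two-sided, also called it (adjusted p = 0.0105, with 37.96% of assays called). Giving each undetermined well a Ct that was 1 cycle later than the latest one of its assay raised the difference to 3.26 (limma, adjusted p = 0.0346, with 21.2% called). For this assay germfree had undetermined wells and conventional had none, so the direction of that rise was set in advance. With sample quality weights, which down-weight samples of large residuals, the difference was 3.29 (limma, adjusted p = 0.00591, with 43.5% called). A call for this comparison therefore depended on how the spread and the undetermined wells were treated. All of these settings gave a higher mean in conventional samples.

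Mono-association with either strain gave no difference from germfree that passed the test. With CEC the mean difference was 0.53 ± 1.11 log2 units (SE; limma, adjusted p = 0.822), with 5 of 9 samples above the germfree mean, in a comparison with 5.09% of assays called. With Nissle it was 0.96 ± 1.14 (SE; limma, adjusted p = 0.627), with 4 of 8 measured samples above the germfree mean and 7.41% of assays called. The 95% confidence intervals ran from -1.72 to 2.79 for CEC and from -1.36 to 3.27 for Nissle, so changes of several fold in either direction are compatible with these samples. In the fit without CEC replicate 7 and Nissle replicate 6 the scaling was recomputed over the remaining samples, unlike for the group means above. The differences were then 0.01 for CEC (limma, adjusted p = 0.995) and 0.35 for Nissle (limma, adjusted p = 0.842). Other settings moved them up, to 1.40 for CEC with undetermined wells filled in, 1.78 for CEC with Ct above 30 missing, 0.98 for CEC without CEC replicate 1 and 1.51 for Nissle without Nissle replicate 1, and none passed the test. Leaving out the highest sample of a group lowers its mean, and leaving out its lowest samples, as Ct above 30 missing also does, raises it. The direction of the changes from leaving out samples was therefore set by the choice of samples. Filling in undetermined wells lowers the germfree mean and changes no CEC value of this assay. The direction of that rise was thus also set in advance. The CEC and Nissle comparisons and the one before share the same germfree samples.

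Between the strains the mean difference was 0.42 ± 1.07 log2 units, higher with Nissle (SE; limma, adjusted p = 0.889, 95% confidence interval -1.75 to 2.60). Of all assays 0.463% were called in this comparison. The sign was not stable. It turned to -0.12 with undetermined wells filled in and to -0.71 with Ct above 30 treated as missing. Of these groups only Nissle had an undetermined well, that of replicate 8. Filling it in lowers the Nissle mean, so the direction of that change was set in advance. Treating Ct above 30 as missing drops the lowest measured values, those of CEC replicates 1, 2 and 3, Nissle replicate 1 and germfree replicate 10. It therefore raises the CEC mean most.

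Against the mean of the CEC and Nissle groups, conventional samples were higher by 1.65 ± 0.91 log2 units, a 3.14-fold difference that did not pass the test (SE; limma, adjusted p = 0.193, 95% confidence interval -0.19 to 3.50). In this comparison 21.3% of assays were called. Of the mono-associated samples, 5 CEC and 4 Nissle samples exceeded the lowest conventional sample. Without CEC replicate 7 and Nissle replicate 6 the difference was 2.16 and passed narrowly (limma, adjusted p = 0.0490, with 33.02% of assays called). These were the highest CEC and Nissle samples for this assay and were picked after the data were seen. Leaving them out lowers the mono-associated mean, so the direction of this change was set by their choice. With sample quality weights it was 2.77 (limma, adjusted p = 0.00412, with 43.98% called). With Ct above 30 treated as missing it shrank to 0.54 (limma, adjusted p = 0.671). That setting drops the lowest CEC and Nissle samples and no conventional sample, so a smaller difference follows from it.

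**Figure D2:**
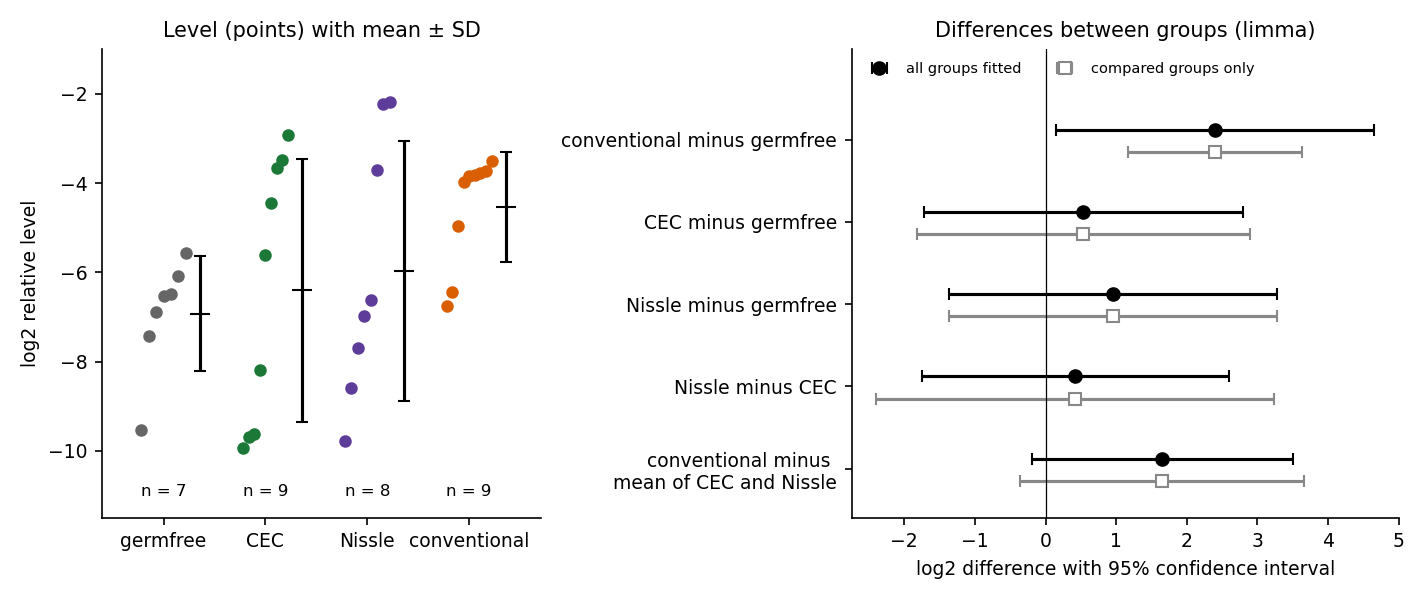
Left, log2 relative level of Mm00445845_m1 in each measured sample (points) with the group mean and SD (bars). Right, the mean difference of each comparison with its 95% confidence interval, from limma with all 4 groups fitted (filled) and with the compared groups only (open). The conventional against germfree interval narrows when the widely spread CEC and Nissle samples leave the fit, while the intervals of both strains against germfree cross 0 in either fit.

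Within the panel the assay lay late in cycling but not at its end. Its median Ct over the measured samples was 27.5, the 15th highest among 222 assays with any value, and 13 assays had a median above 28. Undetermined wells were more frequent in 11 assays, 2 of which never amplified. Ct values of different assays depend on each assay's efficiency, so this order is one of Ct and not of transcript number. No detection limit was measured, so closeness to it can be described by Ct alone. All germfree samples and part of every other group had a Ct of 27 or later, or none. By the limit of 28, 4 of 9 germfree samples lay inside it. A Ct under 27 was found in 7 conventional, 5 CEC and 3 Nissle samples. CEC replicate 8 at 26.91 and germfree replicate 20 at 27.03 lay close to that cut on either side.

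The spread within groups was large for this assay, which had the highest pooled within-group SD of the 216 tested assays. That SD was 2.26 log2 units, against a median of 0.53 over the tested assays. By group, the SD of Mm00445845_m1 ranked 4 of 216 in both the germfree and the conventional group, 2 in the CEC and 1 in the Nissle group. The 9 other tested assays with a median Ct within 1 cycle of it had SDs of 0.52 to 2.26 in CEC and 0.66 to 2.14 in Nissle, below its 2.95 and 2.91. In germfree and conventional samples its SDs of 1.29 and 1.24 lay inside their ranges of 0.56 to 1.70 and 0.53 to 2.98. Without CEC replicate 7 and Nissle replicate 6 the SD was 2.83 in CEC and 2.67 in Nissle samples, each ranking 1 of 216, and the pooled SD was 2.14, which also ranked 1. The part that low template plays in the spread was not tested.

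In the 3 assays next above it and the 3 next below it in median Ct, the mean Ct of conventional minus that of germfree samples lay between -0.35 and 1.28 cycles, and in Mm00445845_m1 it was -2.54. Whether it differs from them was not tested. Mm00839967_g1, with a median Ct of 27.86, was measured in all 36 samples, and its mean Ct was 27.20 in germfree and 27.69 in conventional samples. Mm00840904_m1 and Mm01220132_g1, at median Ct values of 28.17 and 28.15, were likewise measured in all 36. Mm00469375_m1, at a median of 27.5, was measured in 35 samples and had an SD of 1.31 in CEC and 0.68 in Nissle. Mm03053810_s1 and Mm00467543_m1 had medians of 27.1 and 26.9. For Mm00445845_m1 the mean Ct of the measured samples went from 28.3 in germfree to 25.8 in conventional samples.

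**Figure D3:**
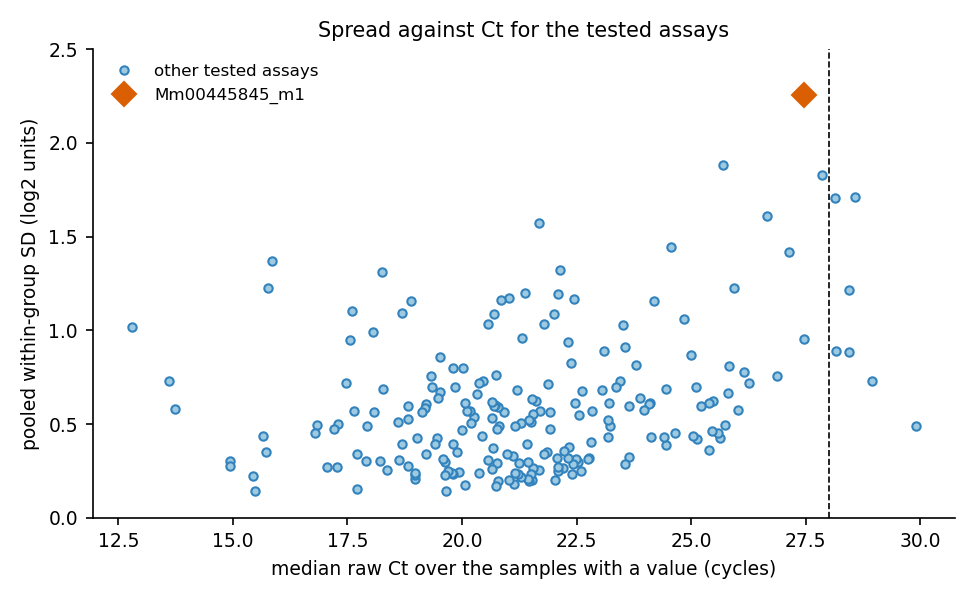
Pooled within-group SD of the log2 relative level against median raw Ct for the 216 tested assays, each point an assay. The dashed line is Ct 28. Mm00445845_m1 (diamond) has the highest SD, 2.26 log2 units, at a median Ct of 27.47.

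The assays whose levels were ordered over the samples most like those of Mm00445845_m1 were found by Spearman rho among 212 assays measured in at least 30 samples. The median rho over these was 0.0008. All points share the scaling of their sample, and the values are a description without a test. The suffix of an ID tells, by the maker's convention, whether the probe spans an exon junction, as it does here, or lies within a single exon, as it does for the 2 most similar assays. Mm00490152_s1 had the highest rho, 0.817 over 32 samples, and 0.823 after each group's mean was subtracted. Mm00845122_s1 followed with 0.760 over 33 samples and 0.738 within groups. Both were highest of all samples in CEC replicate 7, Nissle replicate 2 and Nissle replicate 6, and without CEC replicate 7 and Nissle replicate 6 their rho was 0.780 and 0.712.

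Mm01326247_m1 and Mm00470560_m1 came next, with rho values of 0.673 and 0.641 over 33 samples, and 0.712 and 0.681 without CEC replicate 7 and Nissle replicate 6. In CEC replicates 6, 8, 9 and 10 the log2 relative level of Mm00470560_m1 was 3.22, 1.40, 2.19 and 2.56, and in replicates 1, 2, 3 and 4 it was -1.76, -2.23, -1.36 and -1.49. Mm00445845_m1 divided these samples in the same way, at -3.66, -5.61, -4.44 and -3.48 against -9.93, -9.70, -9.63 and -8.19. Among these samples the division ran along the title numbers in both assays. Whether samples of neighbouring numbers are independent of one another is not known. CEC replicate 7 broke the parallel, since Mm00445845_m1 was at its CEC maximum there while Mm00470560_m1 was at -1.73 and Mm01326247_m1 at -0.01. In Nissle replicates 2, 4 and 6, the 3 samples with most Mm00445845_m1, Mm01326247_m1 was at 3.65, 2.66 and 3.30.

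Against germfree, Mm00470560_m1 rose in all colonised groups, by 4.11 ± 0.72 log2 units in conventional (SE; limma, adjusted p = 6.22e-05), 2.79 in CEC (adjusted p = 0.0187) and 2.96 in Nissle samples (adjusted p = 0.0148), and the corresponding differences of Mm00445845_m1, none of which passed in that fit, were 2.40, 0.53 and 0.96. Whether the assays differ in response was not tested. In germfree samples Mm00470560_m1 stayed between -3.18 and -2.13 (SD 0.34, n = 9), and Mm00445845_m1 ranged from -9.53 to -5.56. Mm00507533_m1 was the fifth most similar assay, with a rho of 0.565 over 32 samples and 0.451 within groups. At the other end, Mm01615926_m1 had a rho of -0.602 and Mm00489956_g1 of -0.583 over 33 samples. Both had their lowest level in CEC replicate 7, at -7.87 and -5.88, and without CEC replicate 7 and Nissle replicate 6 their rho was -0.529 and -0.528.

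**Figure D4:**
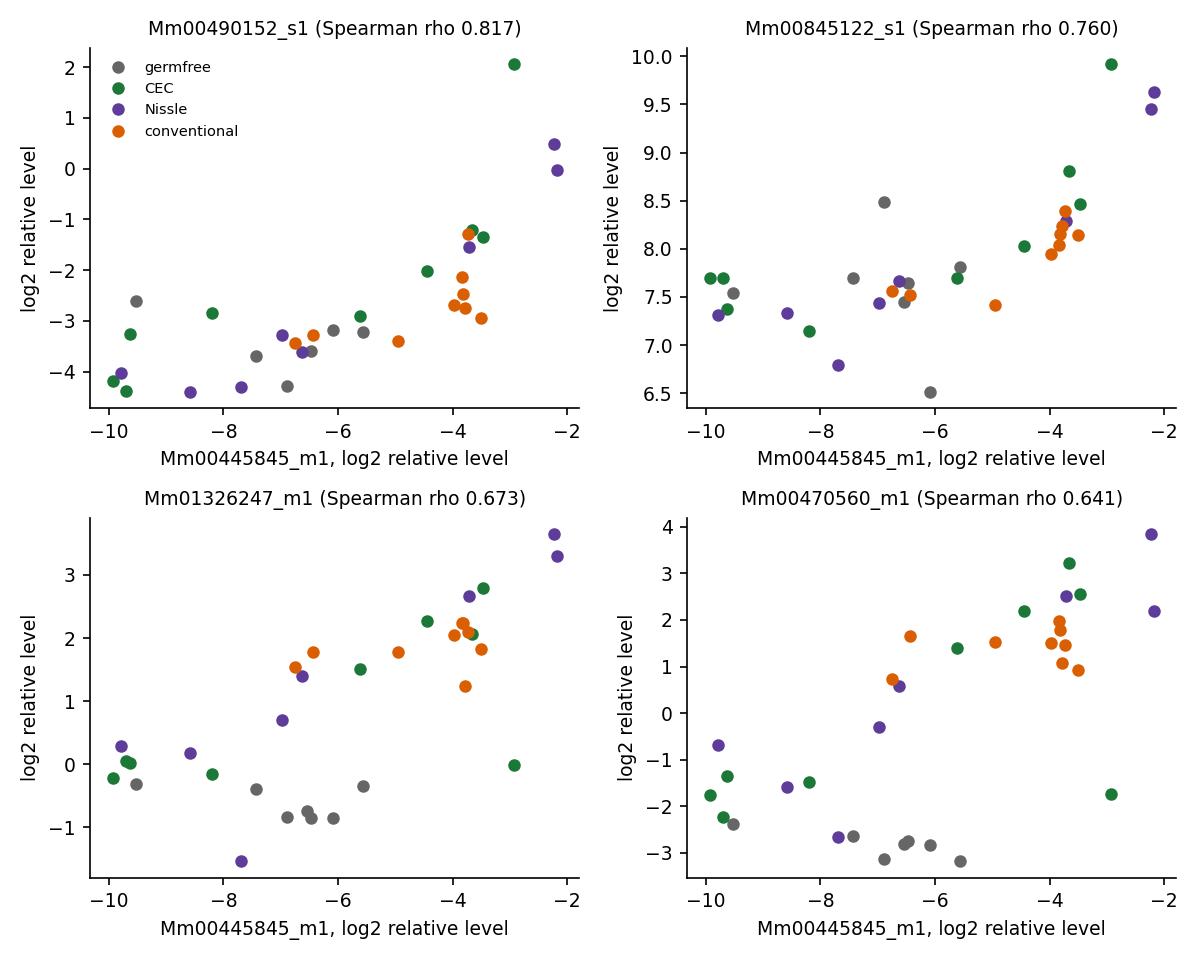
Log2 relative level of the 4 assays most similar in order to Mm00445845_m1 (vertical) against its own log2 relative level (horizontal), each point a sample with both values, coloured by group. Spearman rho runs from 0.817 to 0.641. In both lower panels CEC replicate 7 lies at the lower right, apart from the other samples of high Mm00445845_m1 level.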

How the data were processed

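Raw Ct values were used as deposited by the authors; per the file headers they are not normalized, and the opening line calls the table a shortened example. Per the labels' protocols, RNA was isolated with the mirVana kit and run on TaqMan OpenArray cards; neither threshold setting nor efficiency is given there. Columns were matched to samples by title. Ct 40 was set to missing. Levels were scaled to the mean Ct of 146 assays, since without gene names no reference gene could be used. Fits with samples left out recomputed this scaling over the remaining samples. Assays measured in at least 5 samples of every group (216 of 224) were fitted with limma (version 3.58.1, R 4.3.3; lmFit and eBayes) over 36 samples with 1 term per group; p-values are two-sided, with Benjamini-Hochberg adjustment over all assays of a comparison. The limma and permutation steps were tested on simulated data. The permutation test was exact between 2 groups and used 100000 resamples for the comparison with the mono-associated mean. The assay, the lists and the named samples were chosen with earlier results of these data known. The goblet cell, antimicrobial and cell type lists written by gene symbol could not be applied. The naming rule took the 5 most and 2 least similar assays by Spearman rho and 3 neighbours in median Ct on either side. Same-numbered samples were not treated as pairs: 9 of 27 such pairs had a correlation of deviations over 0.1 (range -0.404 to 0.329). No pair of samples held identical values. No sequence is printed.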

Additional observations from a re-analysis of the deposited data

How the results depend on the processing

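Conventional against germfree kept its sign under 13 alternatives and with each of 36 samples left out. The left-out range was 1.96, without germfree replicate 10, to 2.67 log2 units. The comparison missed the threshold in all but 4 settings. Those were the compared groups only (2.40), the permutation test (2.40), undetermined wells filled in (3.26) and sample quality weights (3.29). Filling in lowers only the germfree mean of this pair, so the direction of that change was set in advance. Conventional against the mono-associated mean passed with sample quality weights (2.77) and without CEC replicate 7 and Nissle replicate 6 (2.16). With each sample left out it was 1.38 to 1.94, and with Ct above 30 missing 0.54. The samples left out together were the highest CEC and Nissle samples of this assay. Treating Ct above 30 as missing removes its lowest ones, so the directions of both changes were set in advance. CEC and Nissle against germfree passed under none of 13, nor with any sample left out (0.10 to 0.98 and 0.35 to 1.51). Nissle against CEC never passed. Its sign turned with undetermined wells filled in (-0.12) and with Ct above 30 missing (-0.71). The sign also turned without CEC replicate 1 (-0.02), Nissle replicate 2 (-0.11) or Nissle replicate 6 (-0.10), in a left-out range of -0.11 to 0.97. The direction of each of these changes was set by the samples filled in or left out. With the replicate number as a replicate block, conventional against germfree was 6.74 (limma, adjusted p = 0.597); germfree shares only the number 10 with other groups, so that value, like 4.87 for CEC and 5.82 for Nissle against germfree, rests on germfree replicate 10. Nissle against CEC was then 0.94 (limma, adjusted p = 0.704). With a limit of 27, germfree had 0 samples under it. A limit of 29 added germfree replicates 11 and 33 and Nissle replicate 5. With Ct shifted for the panel mean, conventional replicate 2 lay at 28.04, outside 28. The assay could not be tested with Ct above 28 missing or in assays measured in all samples. Group mean levels moved by less than 1 SD with raw Ct, with undetermined wells filled in and without CEC replicate 7 and Nissle replicate 6. Over all settings the number of assays called ranged from 0 to 94 for conventional against germfree (56 as reported), 0 to 66 for CEC (11), 0 to 52 for Nissle (16), 0 to 2 for Nissle against CEC (1) and 35 to 95 for conventional against the mono-associated mean (46). Precision is limited by 9 samples a group and by undetermined wells, which give only an upper bound on level.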

Other observations

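The latest Ct values of Mm00445845_m1 lay in a narrow band. CEC replicates 1, 2 and 3, germfree replicate 10 and Nissle replicate 1 fell between Ct 30.92 and 31.03, within 0.114 cycles of one another, and 0 of its 33 measured values were later. Over all assays 13 wells from 7 assays had a Ct in that band, 5 of them from Mm00445845_m1. A later Ct was found in 29 wells from 8 assays, none of them Mm00445845_m1. The band was noticed after its values were seen, and its cause was not tested.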
